A study of Mus musculus with 12 samples.

Results

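The Ttn gene carried 2 H3K4me3 peaks in adult cardiomyocyte (CM) nuclei, a broad peak over its promoter and a narrower peak deep inside the gene. They were taken from the 15848 peaks of the series as all peaks that overlap the Ttn gene region on chromosome 2, with or without an assigned gene name. The members were thus selected on called H3K4me3 enrichment at these coordinates, and the gene was picked with the loss of its internal peak already known. Changes of the internal peak between genotypes, and of any ratio or share that contains it, are therefore a description: where a fit over all peaks or pairs includes it, its outcome restates this choice. Libraries came from FACS-sorted adult CM nuclei (sorted with the nuclear marker PCM1) of 3 CtrlCre and 3 Cpt1bcKO samples, all of which carried the αMHC-Cre transgene, in which the Myh6 promoter drives Cre in CMs. CtrlCre animals were αMHC-Cre pos/+; Cpt1b+/+, and Cpt1bcKO animals were αMHC-Cre pos/+; Cpt1b fl/fl with loxP sites around exons of Cpt1b, the enzyme that lets long-chain fatty acids enter mitochondria. The labels give the animals as adult, with no exact age, and do not say whether a library came from 1 animal or from a pool, so the p-values measure the spread between these libraries. Values are read counts per peak that the authors divided by DESeq2 size factors and rounded (normalized counts). Such factors are set so that most peaks agree between libraries, and a change shared by all peaks would not be seen in them.

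Titin, the product of Ttn, is the giant spring protein of striated muscle and runs from the Z-disc, where thin filaments are anchored, through the elastic I-band and along the thick filament of the A-band to the M-band. Its I-band exons are spliced into stiffer or more compliant cardiac forms by RBM20, and truncating mutations in the human gene are a frequent cause of dilated cardiomyopathy. A shorter titin that lacks the Z-disc and most of the I-band part, called Cronos, starts from a promoter inside the gene. Trimethylation of lysine 4 on histone H3 (H3K4me3) is laid down around the starts of transcribed genes. It usually spans little more than the start itself, but can spread far into genes on which a cell's identity depends.

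The promoter peak lay at chr2:76966800-76984444 (mm10) and was assigned to Ttn in the deposited table. It was 17644 bases wide, began 1897 bases before the annotated start and reached 15747 bases into the gene, over exons 1 to 10 of the 347 exons of transcript Ttn-203 (GENCODE vM21, minus strand). Exons made up 10.2% of this peak and introns 79.1%. Its summit was 196 bases downstream of the start. The internal peak lay at chr2:76805193-76808738 and was 3545 bases wide, with no gene assigned to it, since it was further than the authors' limit from any promoter. Its summit was 175546 bases downstream of the start. It covered exons 221 to 223 of Ttn-203 (exons 66 to 68 of the shorter Ttn-201) and 1868 bases of the intron that follows, which with 3644 bases was the 6th longest of the 346 introns of this transcript, whose median intron had 164 bases. Exons made up 11.6% of the internal peak. Downstream of it lay 124 exons holding 60.5% of the exon bases of Ttn-203, among them those for the A-band and M-band part of the protein. The annotation lists 16 different starts for Ttn transcripts, 3 of them under the promoter peak and 13 elsewhere, and none closer to the internal peak than 17804 bases. Whether the internal peak marks the Cronos promoter was not tested.

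**Figure D1:**
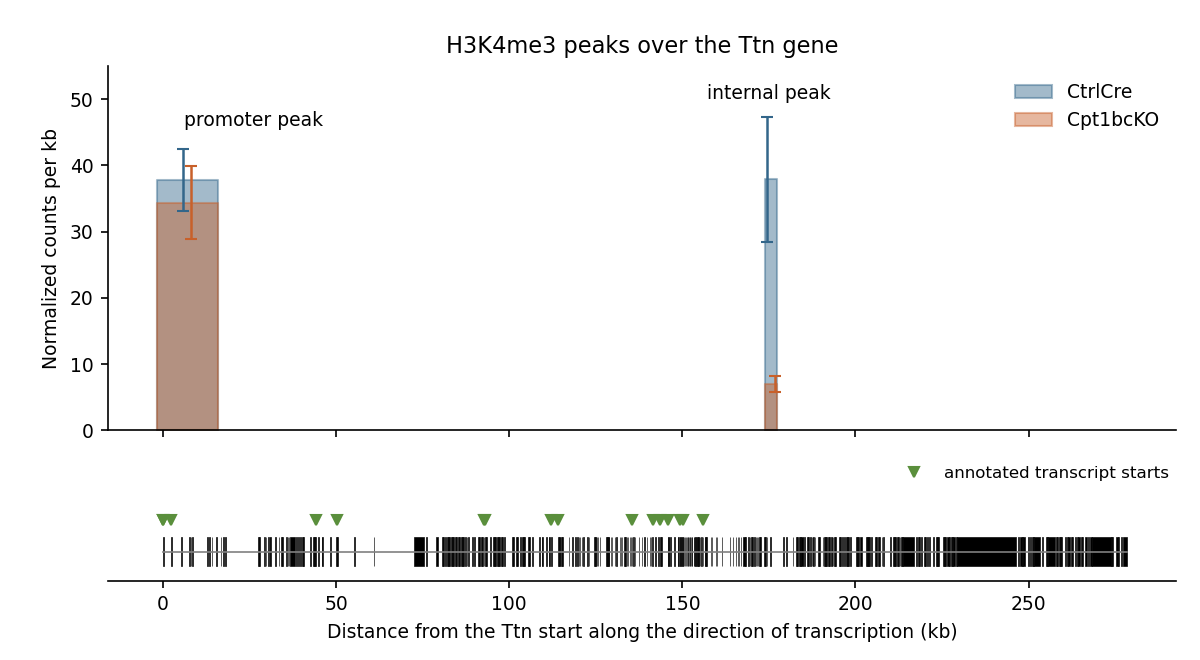
H3K4me3 peaks over the Ttn gene, drawn by distance in kb from the Ttn start in the direction of transcription. Upper panel: bars span each peak and show mean normalized counts per kb of peak for CtrlCre and Cpt1bcKO, with error bars of 1 SD over 3 libraries each; lower panel: exons of Ttn-203 as black bars and annotated transcript starts as triangles. In CtrlCre both peaks reached about the same height, 37.8 and 37.9 per kb, whereas in Cpt1bcKO the internal bar stood at 6.96.

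The sequences at both sites are shown because neither resembles the CpG-rich promoters that carry most H3K4me3. The first is the 250 bases before the annotated start (chr2:76982548-76982797, minus strand, from the RefSeq promoter table for GRCm38.p6, the same primary assembly as mm10). The second is 250 bases centred on the summit of the internal peak (chr2:76806876-76807125, minus strand, same genome), of which the first 65 bases are the end of exon 223 and the rest is intron. Both read 5′ to 3′ along Ttn, and capitals mark motif matches.
Ttn promoter: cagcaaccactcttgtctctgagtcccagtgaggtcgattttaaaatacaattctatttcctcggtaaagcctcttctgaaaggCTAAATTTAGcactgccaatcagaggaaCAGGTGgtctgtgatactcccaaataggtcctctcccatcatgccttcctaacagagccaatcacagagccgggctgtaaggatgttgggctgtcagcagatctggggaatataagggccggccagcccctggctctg
Ttn internal peak summit: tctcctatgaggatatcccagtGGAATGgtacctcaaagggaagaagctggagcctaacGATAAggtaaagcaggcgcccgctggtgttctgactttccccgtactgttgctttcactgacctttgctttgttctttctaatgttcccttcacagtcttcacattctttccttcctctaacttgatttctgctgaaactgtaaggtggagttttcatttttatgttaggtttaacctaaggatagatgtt
Each window was searched on both strands for TATAAA, the E-box CANNTG, the GATA motif GATAA, the M-CAT motif CATTCC, the NKX2-5 motif AAGTG, and the MEF2 and CArG motifs. In the promoter window the capitals mark a MEF2 match at base 85, held by 2.92% of 32851 promoters of the same length, and an E-box at base 113, held by 66.2% of them. In the internal window they mark, at base 23, an M-CAT match read on the opposite strand and, at base 60, a GATAA within the last bases of the exon. Of 1987 peaks more than 5000 bases from any annotated start, 15.3% held the M-CAT letters and 25.4% the GATAA letters in the same window at their summits. The other motifs searched were not found in the windows. No matches overlapped.

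Base composition was alike at both peaks. The promoter peak had a GC content of 42.1% and 13.4 CpG per kb, and the internal peak 41.4% and 14.1 CpG per kb. All 15848 peaks had medians of 55.5% and 47.9 CpG per kb, which placed the promoter peak at percentile 2.35 and the internal peak at percentile 1.88 of GC content. Among the 1987 peaks far from any start, with medians of 50.2% and 25.5 CpG per kb, their GC percentiles were 8.51 and 6.84.

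At the promoter, the H3K4me3 level was 667, 584 and 750 normalized counts in CtrlCre replicates 1, 2 and 3, and 611, 701 and 507 in Cpt1bcKO. The genotypes overlapped, with the highest value in CtrlCre replicate 3 and the lowest in Cpt1bcKO replicate 3. Means were 667 ± 83.0 (SD, n = 3) and 606 ± 97.1 (SD, n = 3), a log2 difference (Cpt1bcKO minus CtrlCre, on log2 of the value plus 1) of -0.14 with a standard error of 0.12. This did not pass the test (limma, Benjamini-Hochberg adjusted p = 0.702 over 15039 peaks), and the 95% interval of the difference ran from -0.39 to 0.10. It was -0.02 without Cpt1bcKO replicate 3, -0.05 without CtrlCre replicate 3 and -0.25 without Cpt1bcKO replicate 2. Over all tested peaks, 2.93% passed this test.

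Inside the gene, the level was 167, 100 and 136 normalized counts in CtrlCre and 20, 28 and 26 in Cpt1bcKO. Every CtrlCre library was above every Cpt1bcKO library, and the lowest CtrlCre value exceeded the highest Cpt1bcKO value by 72. The exact Poisson 95% intervals of these nearest libraries, 72.3 to 135 in CtrlCre replicate 2 and 20.2 to 37.6 in Cpt1bcKO replicate 2, did not overlap; these intervals cover counting error only. The coefficient of variation within a genotype was 25% in CtrlCre and 16.9% in Cpt1bcKO, while counting error alone was 7.11% to 15.2% and 15.2% to 23.6%. The fall, which is how the gene was chosen, left the Cpt1bcKO mean 5.45-fold below the CtrlCre mean. Cpt1bcKO libraries still held 18, 43 and 36 recovered counts in the peak, above the 3 counts that would be read as a floor. In these libraries, fewer nuclei that carry the mark and less mark per nucleus cannot be told apart.

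**Figure D2:**
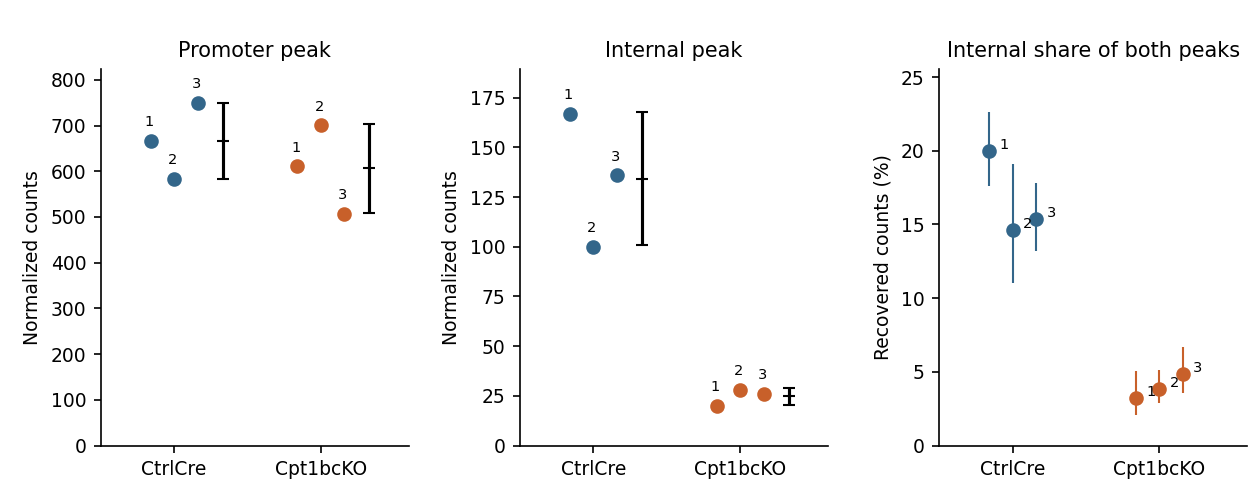
H3K4me3 at the Ttn promoter peak and internal peak (normalized counts) and the share of recovered counts of both peaks that fell in the internal peak (%), by genotype. Points are single libraries with their replicate number, black bars the mean ± 1 SD (n = 3), and lines on the share 95% Wilson intervals; promoter values of the genotypes overlap, while the internal values sit at 100 to 167 in CtrlCre and 20 to 28 in Cpt1bcKO.

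Both peaks were also set against each other within each library, so that library size and scaling cancel. The internal peak held 20% of the counts of both peaks in CtrlCre replicate 1 (95% Wilson interval 17.6% to 22.6%), 14.6% in replicate 2 (11% to 19.1%) and 15.4% in replicate 3 (13.2% to 17.8%). In Cpt1bcKO the share was 3.23% (2.05% to 5.04%), 3.83% (2.86% to 5.12%) and 4.86% (3.53% to 6.65%). These intervals cover counting error only. The log2 ratio of internal to promoter peak was -2.33 ± 0.29 (SD, n = 3) in CtrlCre and -4.57 ± 0.32 (SD, n = 3) in Cpt1bcKO, a difference of -2.24. The ratio and the share contain the value that picked the gene and are no independent evidence. Across the 6 libraries the log2 levels of the peaks had a Pearson correlation of 0.45, as a description of libraries that share scaling and genotype.

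Per kb of peak both sites had about the same level in CtrlCre. Normalized counts per kb in CtrlCre were 37.8 ± 4.70 (SD, n = 3) at the promoter and 37.9 ± 9.46 (SD, n = 3) at the internal peak. In Cpt1bcKO they were 34.4 ± 5.50 (SD, n = 3) and 6.96 ± 1.17 (SD, n = 3). The promoter peak was thus large by its breadth rather than its height: it was the 7th widest of 15848 peaks and 38th by CtrlCre level, but at percentile 30.5 by counts per kb. The internal peak ranked 28th in width and 41st in CtrlCre level among the 1987 peaks more than 5000 bases from any start. In Cpt1bcKO it was at rank 668 of these in level, and at percentile 2.42 by counts per kb.

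**Figure D3:**
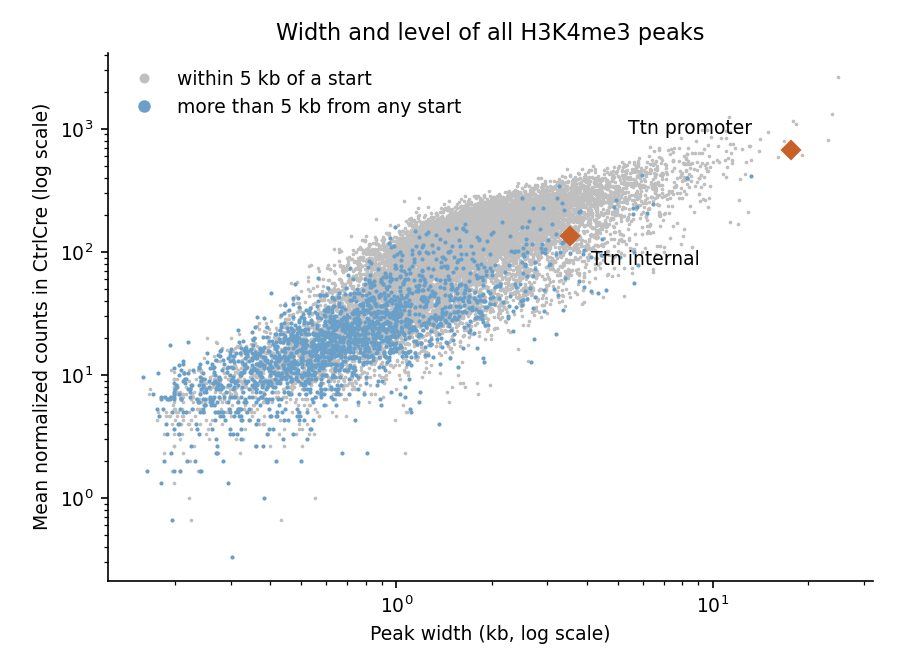
Width in kb and mean CtrlCre level in normalized counts of all 15848 peaks on log axes (peaks with a CtrlCre mean of 0 cannot be drawn). Grey points are peaks within 5 kb of an annotated start, blue points peaks further away, and orange diamonds the Ttn peaks; the promoter peak lies at the far end of the width range and the internal peak near the top of the far peaks.

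Peaks of at least 10000 bases are the nearest likeness of the Ttn promoter peak. There were 45 of them, among them those of Myh6, the main adult myosin heavy chain, and of Gata4, Nkx2-5 and Hand2, transcription factors of heart development. Of the 45, 33 had a log2 difference below 0, with a median of -0.11 against 0.01 over all tested peaks, and 7 (15.6%) passed the test, all lower in Cpt1bcKO, against 1.82% of all tested peaks that passed as lower. The peaks that passed were those of Actc1 (cardiac actin), Tbx5, Irs1, Setd1b, Gin1 and Pfkfb1 and 1 with no assigned gene. The last, at chr1:43176341-43189248, had the lowest difference of the 45, -1.49. It lay next to the peak of Fhl2, a titin partner described below, which began at base 43189729. With a library left out, Irs1 (without CtrlCre replicate 1, limma adjusted p = 0.104), Pfkfb1 (without Cpt1bcKO replicate 3, limma adjusted p = 0.0623) and, in several such fits, Gin1 and Tbx5 no longer passed. Ttn stood 20th from the lowest difference, 21st by CtrlCre level and 34th by counts per kb, where the median was 51.6. The order of libraries at the Ttn promoter was shared by many of the 45. CtrlCre replicate 3 was highest in 22 (48.9%) and Cpt1bcKO replicate 3 lowest in 25 (55.6%), against 16.2% and 16.8% of all tested peaks.

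Markers of CMs moved with these libraries. The 10 CM genes other than Ttn were Myh6, Tnnt2, Tnni3, Actn2, Ryr2, Pln, Myl2, Mybpc3, Actc1 and Tnnc1, which all had a peak. Summed over them, normalized counts were 8844, 8144 and 9721 in CtrlCre and 7649, 8771 and 6057 in Cpt1bcKO. As a share of this sum the Ttn promoter peak was 7.54%, 7.17% and 7.72% in CtrlCre and 7.99%, 7.99% and 8.37% in Cpt1bcKO. Relative to this sum, which includes genes that fell, it was thus higher in all 3 Cpt1bcKO libraries. The exact two-sided permutation p = 0.1 is the smallest possible with 3 libraries per genotype. Members of the sum differed in direction. Means in CtrlCre and Cpt1bcKO were 2645 and 2044 for Myh6 and 835 and 466 for Actc1. They were 704 and 845 for Mybpc3 and 451 and 459 for Actn2. The lower values of Myh6 and Actc1 reduce the sum in Cpt1bcKO and so raise the share of the Ttn promoter there. Whether that share differs when Myh6 and Actc1 are left out of the sum was not tested. The internal peak was 1.23% to 1.89% of the sum in CtrlCre and 0.261% to 0.429% in Cpt1bcKO. Markers of other cells mostly had no tested peak, and those with one summed to far less than the CM genes. A tested peak was found for 1 of 5 fibroblast genes (sum 58 to 69 in CtrlCre, 56 to 63 in Cpt1bcKO) and 1 of 5 endothelial genes (39 to 91 and 31 to 51). The same held for 2 of 4 mural genes (65 to 128 and 36 to 83), 1 of 5 genes of other muscle (14 to 27 and 6 to 15) and 0 of 4 leukocyte genes. The highest endothelial and mural values, 91 and 128, were those of CtrlCre replicate 2. The gene of other muscle with a peak was Myh11, of smooth muscle, while Myod1, Myf5, Tnnt3 and Myh4, of skeletal muscle, had none. The part of these other cells in the values at Ttn was not tested. At Cpt1b itself, the peak was 424 ± 15 (SD, n = 3) in CtrlCre and 610 ± 68.7 (SD, n = 3) in Cpt1bcKO (log2 difference 0.52, standard error 0.10, limma adjusted p = 0.00357); this mark does not show the deletion, so it does not check the labels.

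Whether an internal peak falls while the promoter of its gene stays was examined over all genes with both. This gave 575 pairs of an internal peak more than 5000 bases from any start and the strongest peak over a start of the same gene, in 484 genes. The log2 ratio of internal to promoter peak changed by a median of -0.18 between genotypes, and 375 pairs were below 0. The difference passed the test in 4 pairs (0.696%; limma on the ratios, adjusted over 575 pairs), 3 lower and 1 higher, and in 0 to 3 pairs with a library left out. Ttn is among the 3 lower ones, which restates how it was chosen. Among all pairs Ttn had the 3rd lowest difference, -2.24 with a standard error of 0.31, behind a peak of Armh3 (-2.58; its other internal peak was at -0.25) and Kcnj2 (-2.49), a potassium channel gene, which were measured at CtrlCre means of 24.0 and 19.3 normalized counts and did not pass (adjusted p = 0.0623 and adjusted p = 0.148 by limma). After Ttn came Fbrsl1 (-2.05, adjusted p = 0.111 by limma) and Pip5k1b (-1.95, adjusted p = 0.0623 by limma), which did not pass either.

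The other pairs that passed were Depdc5, a regulator of mTORC1 signalling, whose internal peak went from 76.0 ± 14.0 (SD, n = 3) to 26.0 ± 7.55 (SD, n = 3), Mapk4, from 27.3 ± 9.02 (SD, n = 3) to 8 in each library, and in the opposite direction Fgfr2, a fibroblast growth factor receptor. Neither Depdc5 nor Mapk4 passed when any 1 library was left out. The annotation placed 5 internal peaks under Fgfr2, between chr7:130948878 and chr7:133089342. Their promoter peak, the strongest over any annotated start of Fgfr2, was also the promoter peak of the Ctbp2 pair. An internal peak among them was shared with Ctbp2 too. Whether this promoter peak belongs to the receptor gene was not tested. The internal peak that passed went from 21.3 ± 4.51 (SD, n = 3) to 155 ± 39.2 (SD, n = 3) with this promoter peak at 293 and 295, while the ratios of the other 4 changed by -0.56, -0.11, -0.08 and 0.67 and did not pass. It was the largest rise of the ratio, 2.78 (adjusted p = 0.0168 by limma, not passing without CtrlCre replicate 1, Cpt1bcKO replicate 2 or Cpt1bcKO replicate 3), followed by Ralgps1 (2.48), Pde7b (1.49), Hdac9 (1.21) and Lgr6 (1.18), none of which passed (adjusted p = 0.0759, 0.294, 0.616 and 0.355 by limma). Other internal peaks of these genes changed against the same promoters by -1.65 to 0.81 in Hdac9 (5 peaks in all) and by -0.63 in Lgr6. Ttn had the 10th highest CtrlCre level and the 15th widest of the internal peaks in these pairs, whose medians were 23.3 normalized counts and 842 bases. Of the 81 pairs whose internal peak had a CtrlCre mean of at least 50, Ttn had the lowest ratio change, which restates its choice. A filter on the CtrlCre mean alone favours falls, and it left out the Fgfr2 peak that rose from 21.3. Next to Ttn among the 81 were Depdc5 (-1.90) and Foxp1 (-1.46), and 7 of the 81 were below -1. Over all 1600 tested peaks far from any start, 4.19% passed the test between genotypes, 48 lower and 19 higher.

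**Figure D4:**
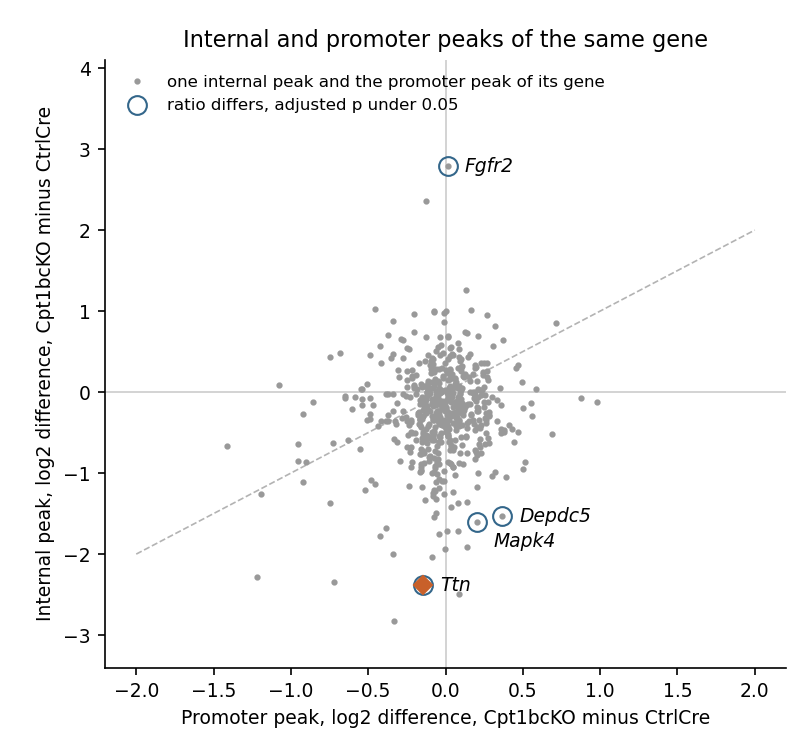
Log2 difference between genotypes (Cpt1bcKO minus CtrlCre) of an internal peak (vertical axis) and of the promoter peak of the same gene (horizontal axis) for 575 pairs. Each grey point is a pair, circles mark the 4 pairs whose ratio passed the test, the orange diamond is Ttn and the dashed line equal change. Ttn and Fgfr2 lie far below and far above 0 with promoter differences of -0.14 and 0.01. The promoter peak of the Fgfr2 pair is shared with Ctbp2.

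Some genes known to work with titin also had such an internal peak. Of the 52 genes listed for titin's partners and regulators, Rbm20, Tead1, Gata4, Mef2d and Qk had pairs. None of these pairs passed, against 0.696% of all pairs. An internal peak of Rbm20, the splicing factor of titin, was 29.3 ± 8.14 (SD, n = 3) in CtrlCre and 9.67 ± 2.31 (SD, n = 3) in Cpt1bcKO (ratio change -1.43, limma adjusted p = 0.128), and its other internal peak had a ratio change of 0.34. Tead1, Gata4 and Mef2d had ratio changes of -0.85, -0.58 and -0.31. In the Qk pair the internal peak had a log2 difference of -0.65 and the promoter peak 0.22.

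Around the gene, 11 other peaks lay within 500000 bases of its ends, 9 of which were tested, and 1 passed, against 2.93% of all tested peaks. This was the peak of Ccdc141, a coiled-coil protein gene 184402 bases upstream of the Ttn start, with 256, 270 and 309 normalized counts in CtrlCre and 227, 199 and 191 in Cpt1bcKO. Its genotypes did not overlap (log2 difference -0.43, standard error 0.10, limma adjusted p = 0.0210), but it no longer passed without CtrlCre replicate 3 (limma adjusted p = 0.123), Cpt1bcKO replicate 2 (0.0846) or Cpt1bcKO replicate 3 (0.122). The neighbours on the other side, Fkbp7 (111 ± 16.5 and 109 ± 3.46, SD, n = 3 each) and Prkra (115 ± 5.51 and 126 ± 1.15, SD, n = 3 each), had log2 differences of -0.02 and 0.12 and did not pass (adjusted p = 0.982 and adjusted p = 0.750 by limma). The other tested neighbours were Pde11a, Rbm45, Osbpl6, Sestd1 and a pair without a gene name, with log2 differences of -0.35 to 0.47.

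The promoter peaks of titin's partners give the setting of the Ttn promoter. The genes were listed with earlier results of these data known, so their counts are a description. Of 52 genes, 46 had a tested peak (Myoz1, Cryab, Ankrd2, Capn3, Myom3 and Mef2c had none), and 5 of these were lower and 1 higher in Cpt1bcKO by the limma test, 13% against 2.93% of all tested peaks, of which 1.82% were lower and 1.11% higher. Their median log2 difference was -0.06 against 0.01 over all tested peaks. Genotypes did not overlap in 8 genes with lower values (17.4%, against 8.46% of all tested peaks) and in 8 with higher values (17.4%, against 7.80%).

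Among 10 tested Z-disc genes, Pdlim3, a LIM protein that binds α-actinin, fell from 157 ± 36.5 (SD, n = 3) to 75 ± 11.5 (SD, n = 3), a log2 difference of -1.04 (limma adjusted p = 0.000395). Csrp3, the muscle LIM protein that works with Tcap at the Z-disc end of titin, was at 417, 386 and 468 normalized counts in CtrlCre and 289, 385 and 251 in Cpt1bcKO. Its difference of -0.48 passed (limma adjusted p = 0.0347) but no longer did without CtrlCre replicate 1 (adjusted p = 0.124), CtrlCre replicate 3 (0.147), Cpt1bcKO replicate 1 (0.191) or Cpt1bcKO replicate 3 (0.237). Tcap itself, which caps the titin ends in the Z-disc, had 284 ± 33.5 and 224 ± 40.8 (SD, n = 3 each) with overlapping genotypes (adjusted p = 0.162 by limma). Flnc, an actin crosslinker, had values without overlap on the other side, 320 ± 12.1 and 371 ± 25.9 (SD, n = 3 each), and did not pass (adjusted p = 0.343 by limma).

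In the I-band group of 9 tested genes, Fhl2, a LIM protein bound to the titin spring, fell from 1041 ± 45.9 (SD, n = 3) to 660 ± 103 (SD, n = 3), a log2 difference of -0.67 (limma adjusted p = 0.00131). Ankrd23, a muscle ankyrin repeat protein bound to titin, rose from 182 ± 17.3 (SD, n = 3) to 284 ± 28.7 (SD, n = 3), a log2 difference of 0.64 (limma adjusted p = 0.000794). Its relative Ankrd1 had 303 ± 58.8 and 280 ± 113 (SD, n = 3 each) with overlapping genotypes. Des (desmin), Smyd2 and Hsp90aa1 were without overlap on the higher side, at log2 differences of 0.30, 0.28 and 0.31, and did not pass (adjusted p = 0.220, 0.291 and 0.219 by limma). The group's median was 0.28.

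No gene of the A-band and M-band group passed among 13 tested. Trim55, a ubiquitin ligase of the M-band, and Cmya5 had lower values without overlap, at log2 differences of -0.30 and -0.37 (limma adjusted p = 0.110 and adjusted p = 0.139). Mybpc3 (myosin-binding protein C), Nbr1 and Sqstm1 had higher values without overlap, at 0.26, 0.26 and 0.24 (limma adjusted p = 0.299, 0.310 and 0.258). The peak of Myh6, the widest of the series, had 2605, 2399 and 2930 normalized counts in CtrlCre and 2142, 2446 and 1544 in Cpt1bcKO.

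None of the 6 splicing regulators passed, with log2 differences from -0.31 to -0.02. Rbm20 had 511 ± 58.5 and 491 ± 80.7 (SD, n = 3 each) at its promoter. Of 8 tested transcription regulators, Myocd (myocardin, a cofactor of SRF) fell from 443 ± 17.3 (SD, n = 3) to 288 ± 25.5 (SD, n = 3), a log2 difference of -0.62 (limma adjusted p = 0.000364). Tbx5 was at 554 ± 23.5 and 416 ± 31.1 (SD, n = 3 each), a difference of -0.41 that passed (limma adjusted p = 0.0167) but no longer did without CtrlCre replicate 1 (adjusted p = 0.123), Cpt1bcKO replicate 2 (0.0514) or Cpt1bcKO replicate 3 (0.0751). Mef2a had lower values without overlap at -0.18 (limma adjusted p = 0.478).

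**Figure D5:**
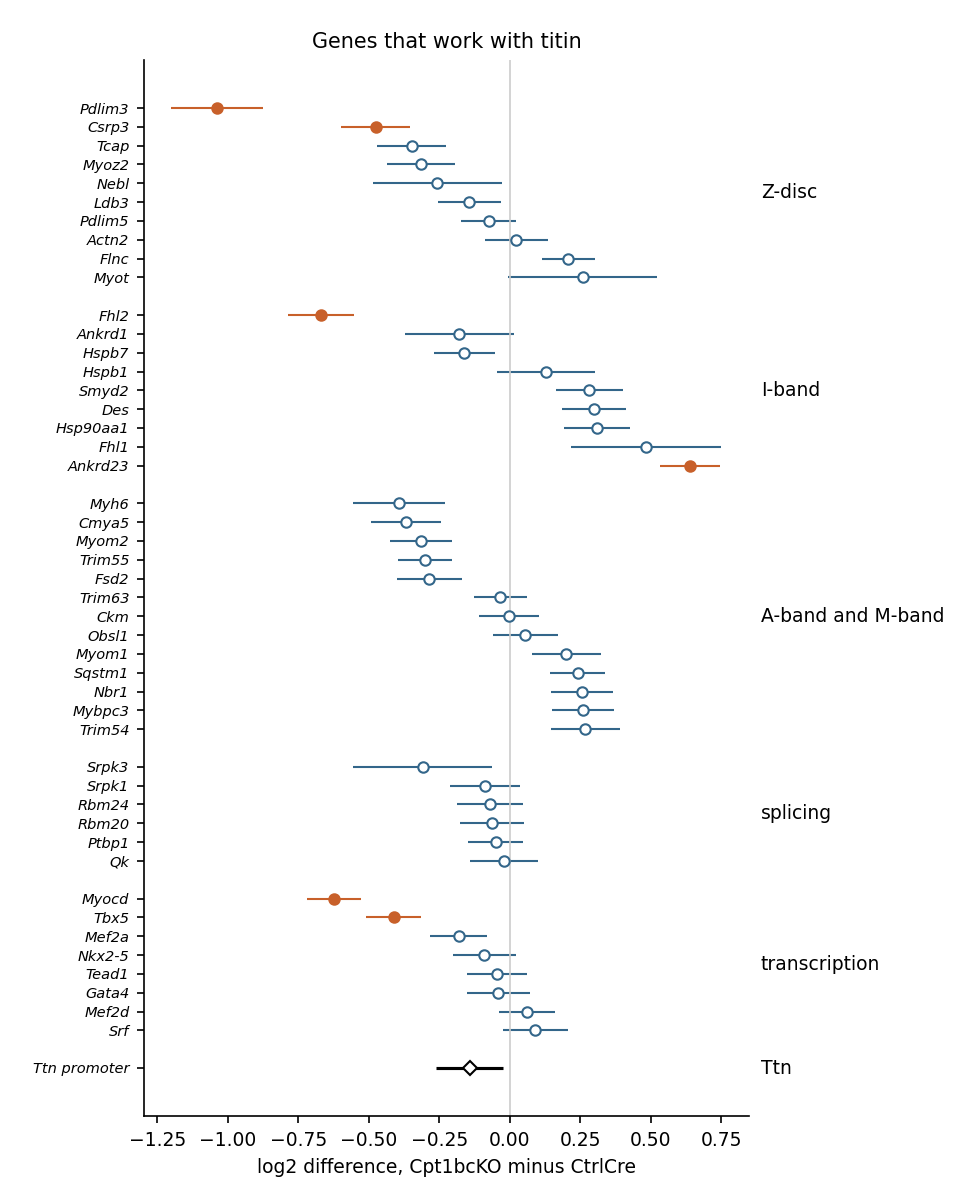
Log2 difference between genotypes (Cpt1bcKO minus CtrlCre) of the strongest peak of each of 46 genes that work with titin or regulate muscle genes, and of the Ttn promoter peak, with bars of 1 standard error. Filled orange points passed the limma test, 5 lower and 1 higher; the Ttn promoter is the diamond at -0.14.

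The gene-assigned peaks whose log2 values over the 6 libraries were most like those of the Ttn promoter peak by Pearson correlation were 4930519P11Rik (0.997), Ppp1r3a (0.978), Nkx2-5 (0.975), Lpl (0.975) and Tssk6 (0.973). In each of them the genotypes overlapped, with log2 differences of -0.22 to -0.09. Most like the internal peak were Rgs2 (0.984), Tox (0.980), Gjc1 (0.980), Sparc (0.980) and Trabd2b (0.978), all lower in Cpt1bcKO without overlap (a choice by likeness to the internal peak favours this). Their log2 differences, -0.88 to -0.50, were smaller than that of the internal peak of Ttn, -2.38 with a standard error of 0.21.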

How the data were processed

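H3K4me3 ChIP-seq of FACS-sorted adult CM nuclei gave 3 CtrlCre and 3 Cpt1bcKO libraries. The 6 input libraries had no column and were not analysed here. Per the submitters' processing notes and the study's methods, the authors trimmed reads (Trimmomatic 0.39), aligned them to mm10 (STAR 2.6.1d), removed duplicates (Picard 2.21.7), called peaks per library against its input with MUSIC, merged them into union peaks, counted reads per peak and divided counts by DESeq2 (1.26.0) size factors. Each deposited library value is such a quotient, rounded to a whole number (treated as a score, not as a raw count). The deposited genotype means are unrounded signal and served only to recover, together with the rounded values, the whole counts of each library; all 15848 peaks had a single solution, with totals of 763133 to 2766416 counts in peaks. Deposited fold-change and p-value columns were not used.

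Genotypes were compared with limma 3.58.1 (R 4.3.3) on log2(value + 1) with a variance trend, over 15039 peaks with a mean of at least 10, and p-values were Benjamini-Hochberg adjusted over all of them at a threshold of 0.05. Pair ratios were fitted the same way without the trend. Exact permutation tests used scipy 1.17.1. No pair of libraries of a genotype agreed within sampling noise (chi-square per degree of freedom 1.45 to 3.25). Named genes were all peaks of the gene region, peaks within 500000 bases, list genes that passed or did not overlap, the 5 largest falls and rises of pairs, the 5 peaks most like each Ttn peak, and Cpt1b; other names were chosen after their values were seen. The Ttn peaks and all gene lists were chosen with earlier results of these data known. One gene of the titin list is not reported here. Qk is named Qki in the table and was matched through RefSeq synonyms. Alternatives were a stricter or no filter, a pseudocount of 5, quantile normalization, limma-voom on recovered counts, leaving out each library and a replicate block.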

Additional observations from a re-analysis of the deposited data

How the results depend on the processing

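The Ttn promoter peak stayed on the same side of the threshold under all alternatives run, with log2 differences of -0.25 to -0.02, and the internal peak kept a difference of -2.58 to -2.21. The change of the ratio was -2.40 to -2.07 with a library left out. The internal peak was called in every setting, which follows from its choice and is no sign of stability. The pair test was the least stable: it called 12 of 66 pairs with means of at least 50, 9 with a pseudocount of 5 and 31 with a variance trend on the internal peak's mean, an alternative chosen after seeing the data, and 0 to 3 with a library left out. The pair of Ttn was not called without CtrlCre replicate 1, Cpt1bcKO replicate 1, Cpt1bcKO replicate 2 or Cpt1bcKO replicate 3; the cause was not tested. Of the titin list, 4 to 6 genes were called with a library left out and 7 with quantile normalization. Over all peaks, 441 were called, 503 by limma-voom on recovered counts and 229 to 431 with a library left out, the lowest without CtrlCre replicate 1.

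Replicate numbers were not taken as pairs, because deviations of same-numbered libraries correlated at 0.08, -0.08 and 0.11. With a replicate block the Ttn promoter peak was at -0.14 (limma adjusted p = 0.789) and 5 pairs and 4 list genes were called; Csrp3 (adjusted p = 0.0627), Tbx5 (0.0543), Gin1 (0.0627) and the Mapk4 pair (0.0562) were not.

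CtrlCre replicate 2 had the fewest counts in peaks, 763133, and only 43 in the internal Ttn peak, so counting error limits its value there. Peaks were called on these libraries, and parts of the gene outside called peaks have no value. Levels are relative to the size factors, so a shift shared by all peaks could not be measured.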
